A study of Homo sapiens with 12 samples.

Results

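The intervals described here are the chromatin immunoprecipitation with sequencing (ChIP-seq) intervals beside the presumed centromere gaps of the human autosomes, called pericentromeric below. They were chosen by position alone. The 4 deposited interval lists were pooled, stretches of at least 2.9 Mb without an interval of any list were located on chromosomes 1 to 22, and every interval lying wholly within 1 Mb of an edge of such a stretch was kept. This gave 3971 pericentromeric intervals out of 143997 autosomal intervals and 164693 intervals in all. The lists are named here by cell line and target of the antibody. HepG2-HOXA13 held 2410 of the members, HepG2-HA 922, Huh7-HOXA13 177 and Huh7-HA 462.

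The study mapped the binding of HOXA13, a homeodomain transcription factor, in HepG2 and Huh7, which are human liver cancer cell lines. Untagged cells of each line were precipitated with an antibody to HOXA13. Stable transfectants of each line, expressing HOXA13 fused to an HA epitope, were precipitated with an antibody to the tag. Each list compares 1 ChIP library with the input of the same cells, and the 4 IgG libraries among the 12 libraries of the series were not analysed here. Cell population and antibody change together between the lists of a line, so their contributions cannot be told apart. With 1 library per condition no test between conditions was possible, and the 95% intervals given below cover counting error only.

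Centromeres are the chromosome regions on which the kinetochore assembles at cell division. Human centromeres consist of long arrays of alpha satellite, a tandemly repeated DNA, and the sequence next to them is rich in other satellites, retroelement fragments and segmental duplications. Reference assemblies of the GRCh37 generation leave most of each array as a gap, and reads from the arrays can then align to the few repeat copies that the assembly does hold at the gap edges. Such sequence is a known source of excess reads in input libraries as well as in ChIP libraries.

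Coordinates are printed in GRCh37, 1-based, because the sequence names in the lists are those of that build. The fold of an interval is the authors' deposited ratio of ChIP pileup to expected pileup at the summit, with a pseudocount added to both. It is therefore lower than the plain ratio of the pileups printed below. Pileup is the number of extended reads over a base, and the expected pileup is the level expected from the input. ChIP depth, estimated from the background of each list, was 45.2, 52.4, 70.3 and 61.8 M reads (M, 1e6 reads) in HepG2-HOXA13, HepG2-HA, Huh7-HOXA13 and Huh7-HA. An interval was called strong when its deposited −log10 q was at least 5. It was said to have raised input when its expected pileup exceeded 3 times the genome background of its list, which was 1.73, 2.62, 2.60 and 2.61 in the same order.

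The rule found 18 stretches, 1 on each of 18 autosomes, and so 36 edges. Chromosomes 13, 14, 15 and 22 had no such stretch. The longest stretches lay on chromosome 1 (121485411 to 142535473, 21.05 Mb), chromosome 9 (47258201 to 65602688, 18.34 Mb) and chromosome 16 (35284147 to 46385830, 11.10 Mb). The other 15 were between 3.00 and 3.20 Mb long. The content of the stretches was not annotated here. How far the edges on chromosomes 1, 9 and 16 lie from the centromere itself was therefore not examined. Below, the edge at the lower coordinate is called the p side and the edge at the higher coordinate the q side. Every edge carries an interval by construction, since an interval defines it. HepG2-HOXA13 supplied 18 of the 36 defining intervals, HepG2-HA 10, Huh7-HOXA13 2 and Huh7-HA 6.

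Intervals were denser beside the stretches than elsewhere on the autosomes in all 4 lists, and the ratio was larger in the HepG2 lists than in the Huh7 lists. HepG2-HOXA13 had 67.4 pericentromeric intervals per Mb (95% Poisson interval 64.8 to 70.2) against 25.9 elsewhere, a ratio of 2.61. The HepG2-HA list had 25.8 per Mb (24.2 to 27.5) against 12.5, a ratio of 2.07. In Huh7-HOXA13 the values were 4.95 per Mb (4.25 to 5.74) and 3.78, a ratio of 1.31. Those of Huh7-HA were 12.9 per Mb (11.8 to 14.2) and 10.5, a ratio of 1.23. As shares of all autosomal intervals, the members made up 3.38% (exact binomial interval 3.25 to 3.51) and 2.70% (2.54 to 2.88) of the HepG2 lists, and 1.73% (1.48 to 2.0) and 1.63% (1.49 to 1.78) of the Huh7 lists. Leaving out chromosome 21, the fullest in HepG2, gave 2.62% and 2.02% in the HepG2 lists. The windows hold 1.32% of the autosomal length between the outermost intervals and outside the stretches. In Huh7-HA the excess lay in the intervals with raised input and near the edges. Without intervals with raised input its share was 1.19%, below that of the length, and without members within 50 kb of an edge it was 1.13%.

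Strong intervals were distributed very differently among the lists. In HepG2-HOXA13, 231 of 334 strong autosomal intervals were pericentromeric, or 69.2% (63.9 to 74.1). The share was 16% (9.63 to 24.4) in Huh7-HA, with 17 of 106. It was 2.48% (2.13 to 2.87) in HepG2-HA, with 179 of 7216, and 2.26% (0.83 to 4.85) in Huh7-HOXA13, with 6 of 266. Without the members within 50 kb of an edge the shares were 34.0%, 1.11%, 0.649% and, unchanged at 6 strong members, 2.26% in the same order. The HepG2 lists thus held similar numbers of strong pericentromeric intervals, while the anti-HA list had many more strong intervals in the rest of the genome.

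Seen from the members, 9.59% of those in HepG2-HOXA13 were strong, against 0.468% of all autosomal intervals of that list and 0.149% of those outside the windows. In HepG2-HA, 19.4% of members were strong, close to the 21.2% of all autosomal intervals. Of the Huh7-HOXA13 members 3.39% were strong, with a background of 2.6%. Of the Huh7-HA members 3.68% were strong, with a background of 0.374%. The share of members with q of 0.05 or less was 31.6% in HepG2-HOXA13 against 9.9% of the list, 52.7% in HepG2-HA against 50.6%, 11.9% in Huh7-HOXA13 against 9.37%, and 18.6% in Huh7-HA against 6.61%. The members therefore stood out from their list by significance in HepG2-HOXA13 and in Huh7-HA, and were near the background in HepG2-HA and Huh7-HOXA13.

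The median fold of the members was close to or below that of the other intervals. It was 2.91 in HepG2-HOXA13 against 2.83 in the other autosomal intervals. It was 2.57 against 2.83 in HepG2-HA, 2.55 against 2.69 in Huh7-HOXA13 and 2.42 against 2.58 in Huh7-HA. A fold of 5 or more was reached by 22 members of HepG2-HOXA13, 13 of HepG2-HA, 5 of Huh7-HOXA13 and none of the 462 of Huh7-HA. These are 0.91%, 1.41%, 2.82% and 0% of the members, set beside 0.0982%, 10.8%, 2.01% and 0.0741% of all autosomal intervals of those lists. The share of folds this high lay above the background in HepG2-HOXA13, where 22 of the 70 such autosomal intervals (31.4%) were members, below it in HepG2-HA and near it in Huh7-HOXA13.

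Raised input was more frequent among the members than in the list as a whole in all 4 lists. In HepG2-HOXA13, 447 of 2410 members had raised input, or 18.5% (17 to 20.2), against 1.48% of all autosomal intervals. For HepG2-HA it was 307 of 922, or 33.3% (30.3 to 36.4), against 17%. For Huh7-HOXA13 it was 37 of 177, or 20.9% (15.2 to 27.6), against 8.79%. For Huh7-HA it was 151 of 462, or 32.7% (28.4 to 37.2), against 8.06%. The highest expected pileup among the members was 62.6, 55.6, 31.9 and 67.5 times the background of the respective list.

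Nearly all strong members had raised input in 3 of the lists. They were 209 of 231 (90.5%) in HepG2-HOXA13, against 78.4% of all strong autosomal intervals of that list, which are mostly the members themselves. In HepG2-HA they were 156 of 179 (87.2%) against 31.2%, and in Huh7-HA 16 of 17 (94.1%) against 51.9%. In Huh7-HOXA13 the number was 0 of 6 against 13.5%. A strong member of HepG2-HOXA13 had a median ChIP pileup of 81.0 on an expected pileup of 28.9 and a median fold of 2.82. In HepG2-HA these medians were 110.0, 52.3 and 2.19, and in Huh7-HA 171.0, 83.9 and 1.96. Strong members thus combined a modest fold with a deep pileup. At a given fold, a Poisson p becomes smaller as the pileup becomes deeper, so q and fold rank these intervals differently.

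**Figure D1:**
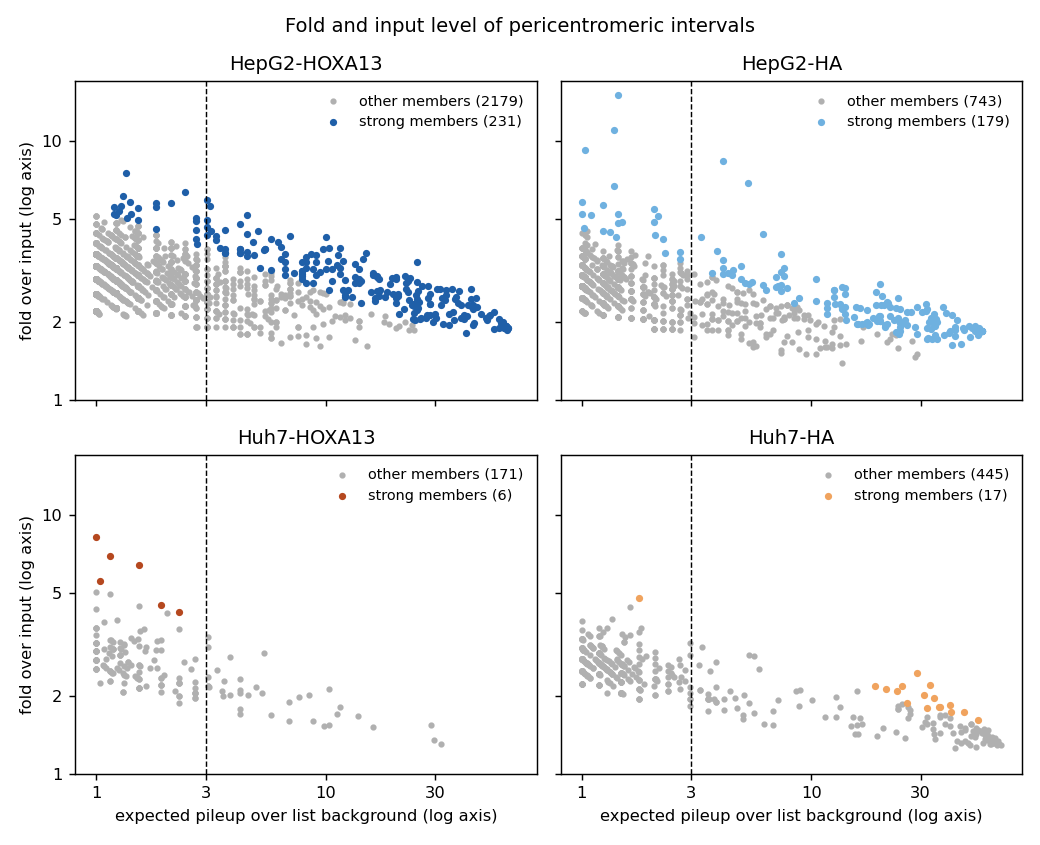
Each point is 1 pericentromeric interval, with the expected pileup divided by the list background on the x axis and the deposited fold on the y axis, both logarithmic. The dashed line marks 3 times the background. Colored points are strong members, most of which lie to the right of the line at low fold in HepG2 and in Huh7-HA, whereas the 6 strong members of Huh7-HOXA13 lie to its left.

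The HepG2 lists also differed without the intervals with raised input. Of the 72 strong autosomal intervals of HepG2-HOXA13 without raised input, 22 were pericentromeric, or 30.6% (20.2 to 42.5). The same count in HepG2-HA was 23 of 4968, or 0.463% (0.29 to 0.69), which lies below the share of the length that the windows hold. It was 6 of 230 in Huh7-HOXA13 (2.61%, 0.96 to 5.59) and 1 of 51 in Huh7-HA (1.96%, 0.05 to 10.4).

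The density fell steeply with distance from the edge. Within 20 kb of an edge, HepG2-HOXA13 had 425 intervals per Mb, HepG2-HA 261, Huh7-HA 139 and Huh7-HOXA13 16.7. From 50 to 100 kb the values were 112, 25, 11.1 and 3.33 in the same order. From 2 to 5 Mb they were 30.1, 13.4, 10.7 and 4.82. In Huh7-HOXA13 the density between 50 kb and 1 Mb, 3.33 to 5.00 per Mb, was close to that at 2 to 5 Mb, and in Huh7-HA it was 8.24 to 11.1 per Mb. Between 200 and 500 kb the density was 68.5 per Mb in HepG2-HOXA13 and 24.4 in HepG2-HA. The p side of chromosome 21 alone held 261 of the 740 and 134 of the 264 intervals in that bin. Over the other 35 edges the density was 45.6 per Mb (41.6 to 49.9) in HepG2-HOXA13, above its 30.1 at 2 to 5 Mb, and 12.4 (10.3 to 14.7) in HepG2-HA, with an interval that holds its 13.4 at 2 to 5 Mb. The first bin is raised in part by construction, because it contains the 36 defining intervals.

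**Figure D2:**
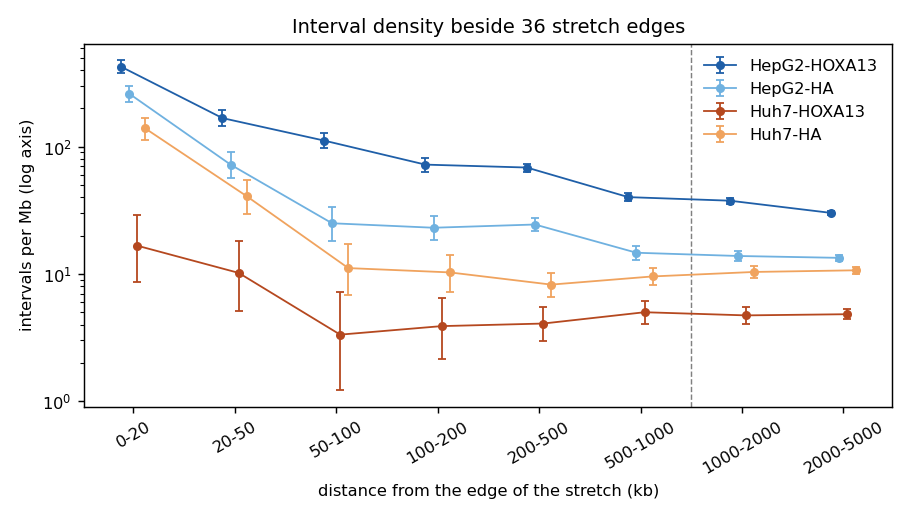
Intervals per Mb (log axis) by distance from the nearest of 36 stretch edges, for the 4 lists, with 95% Poisson intervals of the counts. The dashed line marks the 1 Mb limit of the windows. All 4 lists are highest within 20 kb. HepG2-HOXA13 stays above its level at 2 to 5 Mb in every nearer bin. HepG2-HA stays above its own up to 500 kb, between 200 and 500 kb only with the p side of chromosome 21 included.

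The 50 kb next to an edge, a distance chosen after the profile was seen, held most of the strong members. These were 178 of 231 in HepG2-HOXA13, 133 of 179 in HepG2-HA, 16 of 17 in Huh7-HA and 0 of 6 in Huh7-HOXA13. Of all members within 50 kb, 54.6% of the 487 in HepG2-HOXA13 had raised input, as did 75.9% of the 266 in HepG2-HA, 73.9% of the 23 in Huh7-HOXA13 and 81.9% of the 144 in Huh7-HA. Their median folds were 2.68, 2.14, 1.89 and 1.56. From 50 kb to 1 Mb the median folds were higher, at 2.94, 2.72, 2.62 and 2.53. The members near the gap thus had raised input more often and a lower median fold than those farther out.

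The strong members formed a few dense blocks. Grouped with gaps of at most 50 kb, the 231 of HepG2-HOXA13 fell into 28 groups, and 16 groups of 3 or more members held 214 of them. The 179 of HepG2-HA fell into 39 groups, of which 11 with 3 or more held 144. The 17 of Huh7-HA fell into 7 groups, and the 6 of Huh7-HOXA13 each stood alone.

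The block with the most strong members began at the q side of the chromosome 16 stretch, at 46385830 to 46435559. In its 50 kb, HepG2-HOXA13 had 44 intervals, of which 41 were strong, and they covered 65.4% of the sequence. The HepG2-HA list had 40 intervals there, 37 of them strong, covering 64.0%. Huh7-HA had 51 intervals, 7 of them strong, covering 26.1%, and Huh7-HOXA13 had 1 interval of 1.36-fold. The median ChIP pileups were 186.5, 231.0 and 205.0 in HepG2-HOXA13, HepG2-HA and Huh7-HA, on expected pileups of 78.7, 115.1 and 139.8. The median folds were 2.05, 1.86 and 1.43. The number of intervals was thus highest in Huh7-HA, and the fold there was the lowest of these 3 lists. The widest members of both HepG2 lists lay in this block, at 46391850 to 46395482 in anti-HOXA13 (3633 bp, 1.90-fold) and 46399373 to 46402293 in anti-HA (2921 bp, 1.86-fold).

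The pileups of this block had a flat top. The highest ChIP pileup among all autosomal intervals was 206.0 in HepG2-HOXA13, 270.0 in HepG2-HA and 228.0 in Huh7-HA, and in each of these lists a member reached it. The shortest intervals of these lists measured 103, 135 and 114 bp, so each maximum was exactly 2 times the shortest width. Within 5% of the maximum lay 20 of the 44 block intervals in HepG2-HOXA13, 16 of 40 in HepG2-HA and 13 of 51 in Huh7-HA. In Huh7-HOXA13, the highest pileup of 149.4 was 1.21 times the shortest width of 123 bp and belonged to no member. That pileup is given after scaling by 0.812, so its ratio is not directly comparable with those of the other lists. By default MACS2, the peak caller used, extends reads to a single length, reports no interval shorter than that length and keeps a single read per position and strand. A pileup then cannot exceed the extension length counted on both strands. The settings of the authors' call were not given in the sources used. The fold of intervals within 5% of the maximum spanned 1.87 to 2.68, 1.84 to 1.91 and 1.29 to 1.61 in the 3 lists.

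Both sides of the chromosome 8 stretch carried similar blocks. On the p side, in the 50 kb up to 43838762, HepG2-HOXA13 had 30 intervals, all strong, HepG2-HA 29 with 24 strong, and Huh7-HA 17 with 3 strong. On the q side, from 46838983, the counts were 30 with 27 strong, 26 with 23 strong and 15 with 2 strong. Huh7-HOXA13 had no interval in either block, and whether ChIP depth bears on this was not tested. Median folds on the p side were 2.39, 1.97 and 1.68, and on the q side 2.42, 1.92 and 1.51. Expected pileups were 22.4 to 34.2 times the background in these 6 sets of intervals.

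The q side of chromosome 5 and the p side of chromosome 17 followed. On chromosome 5, in the 50 kb from 49405661, the 4 lists had 48, 33, 2 and 5 intervals (HepG2-HOXA13, HepG2-HA, Huh7-HOXA13, Huh7-HA), of which 26, 18, 0 and 1 were strong. On chromosome 17, in the 50 kb up to 22261674, they had 26, 20, 2 and 8 intervals, of which 18, 14, 0 and 2 were strong. The strongest member by q of HepG2-HOXA13 lay here, at 22261520 to 22261653, 21 bp from the edge, with −log10 q of 31.3, a ChIP pileup of 149 on 43.0 expected and a fold of 3.41 (2.89 to 4.00). In all 5 blocks HepG2-HOXA13 had the most strong intervals and Huh7-HOXA13 had 0.

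**Figure D3:**
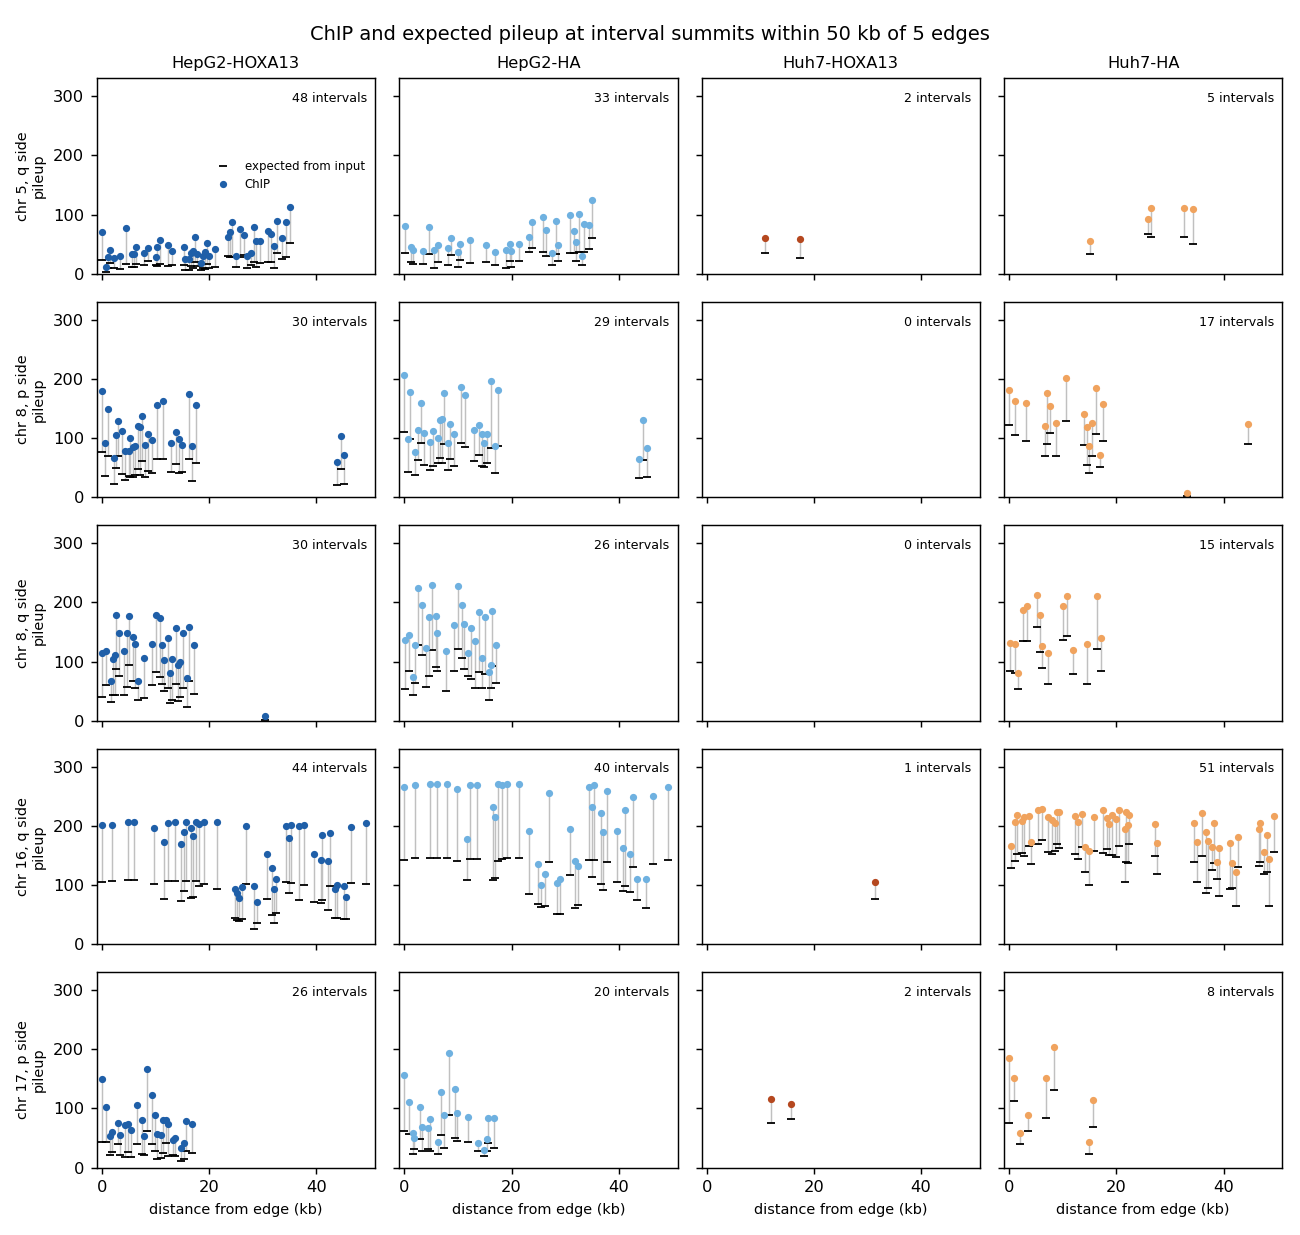
ChIP pileup (points) and pileup expected from input (dashes) at the summit of each interval within 50 kb of 5 stretch edges, in the 4 lists; both are numbers of extended reads. The dashes stand well above the list backgrounds of 1.73 to 2.62 at nearly all points, and the chromosome 16 panels show pileups levelling off near 206, 270 and 228.

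A smaller block lay at the p side of chromosome 6. In the 50 kb up to 58780144 there were 8 intervals of HepG2-HOXA13, 5 of HepG2-HA, 0 of Huh7-HOXA13 and 5 of Huh7-HA, of which 5, 4, 0 and 0 were strong. The 5 strong ones of HepG2-HOXA13 spanned 58774381 to 58780144, had folds of 1.94 to 2.93 and a median input of 52.0 times the background. In HepG2-HA the median pileup of the 50 kb was 252.0 on 135.3 expected (1.93-fold), and in Huh7-HA 219.0 on 160.7 (1.33-fold). The ChIP and expected pileups of these lists were above their medians in the chromosome 16 block. Those of HepG2-HOXA13, 84.0 on 30.4 expected, were below its medians there.

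Smaller blocks lay away from the edges as well. On the p side of chromosome 4, 12 strong intervals of HepG2-HOXA13 spanned 49093961 to 49152631, at least 506608 bp from the edge, with folds of 3.70 to 5.92. HepG2-HA had 4 strong intervals in that span, and the Huh7 lists had 1 and 0 intervals of any strength. On the p side of chromosome 2, 8 strong intervals of HepG2-HOXA13 spanned 91595290 to 91614469, where HepG2-HA had 1. A block of 2.54 kb on the q side of chromosome 7, at 61968007 to 61970546, held 4 strong intervals of HepG2-HOXA13 and 3 of HepG2-HA, with 3 intervals of Huh7-HA of lesser significance. On the q side of chromosome 20, 5 strong intervals of HepG2-HA spanned 30252149 to 30308018, and HepG2-HOXA13 had no interval in that span.

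The members were unevenly spread over the 36 edges. All 36 windows held a member of HepG2-HOXA13, 34 of HepG2-HA, 33 of Huh7-HOXA13 and 34 of Huh7-HA. The median number per window was 49.5, 15.0, 3.0 and 10.0. Strong members were found in 19, 19, 5 and 6 windows. The density exceeded that of the rest of the same chromosome in 28, 19, 17 and 18 of the 36 windows, so in 3 of the lists about as many windows lay below the chromosome as above it.

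The window on the p side of chromosome 21, the 1 Mb up to 11186175, was the most populated in both HepG2 lists. It held 526 intervals of HepG2-HOXA13, which is 21.8% of that list's members and 24.5 times the density of the rest of the chromosome. HepG2-HA had 237 there, 25.7% of its members and 25.6 times the rest of the chromosome. The Huh7 lists had 4 (anti-HOXA13) and 7 (anti-HA). Only 8, 3, 0 and 0 of these intervals were strong, and raised input was present in 45, 15, 0 and 0. The median fold was 3.03 in HepG2-HOXA13 and 2.69 in HepG2-HA, and the highest expected pileup was 6.38 and 5.56 times the background. Intervals were most frequent 300 to 500 kb from the edge, with 209, 115, 0 and 1. Of all autosomal intervals, 0.468% and 21.2% were strong in HepG2-HOXA13 and HepG2-HA, and 1.48% and 17% had raised input. The share with q of 0.05 or less was 33.8% in this window against 9.9% in HepG2-HOXA13, and 38.4% against 50.6% in HepG2-HA. By these shares the window lay above its list in HepG2-HOXA13 and below it in HepG2-HA. Its median expected pileup was 1.475 and 1.43 times the background in these lists, far below that of the edge blocks of chromosomes 8 and 16.

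In 2 other windows both HepG2 lists were well above the Huh7 lists. The p side of chromosome 4 had 193 intervals of HepG2-HOXA13 (13.0 times the rest of the chromosome), 54 of HepG2-HA (6.59 times), 5 of Huh7-HOXA13 and 6 of Huh7-HA. The q side of chromosome 1 had 173 (8.64 times), 52 (4.87 times), 2 and 5. The p side of chromosome 16 had 116 intervals of HepG2-HOXA13 (1.75 times), but only 12 of HepG2-HA (0.54 times) and none of either Huh7 list. No interval of this window was strong. Here 0 of 177 and 0 of 462 Huh7 members were found, although the q side of the same stretch was the fullest window of Huh7-HA.

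The Huh7 lists had their fullest windows elsewhere. The p side of chromosome 19 held 21 members of Huh7-HOXA13, 11.9% of that list's members, with 22 of Huh7-HA, 58 of HepG2-HOXA13 and 22 of HepG2-HA. The q side of chromosome 16 held 55 members of Huh7-HA, 11.9% of its members. The windows of chromosome 3 were richer in Huh7-HA, with 17 and 27 intervals on the p and q side, than in HepG2-HOXA13, with 10 and 11, although the latter list had more autosomal intervals in all, 71316 against 28346. On chromosome 20, the windows of HepG2-HOXA13 were below the rest of the chromosome at 0.60 and 0.69 times its density of 120.9 per Mb.

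**Figure D4:**
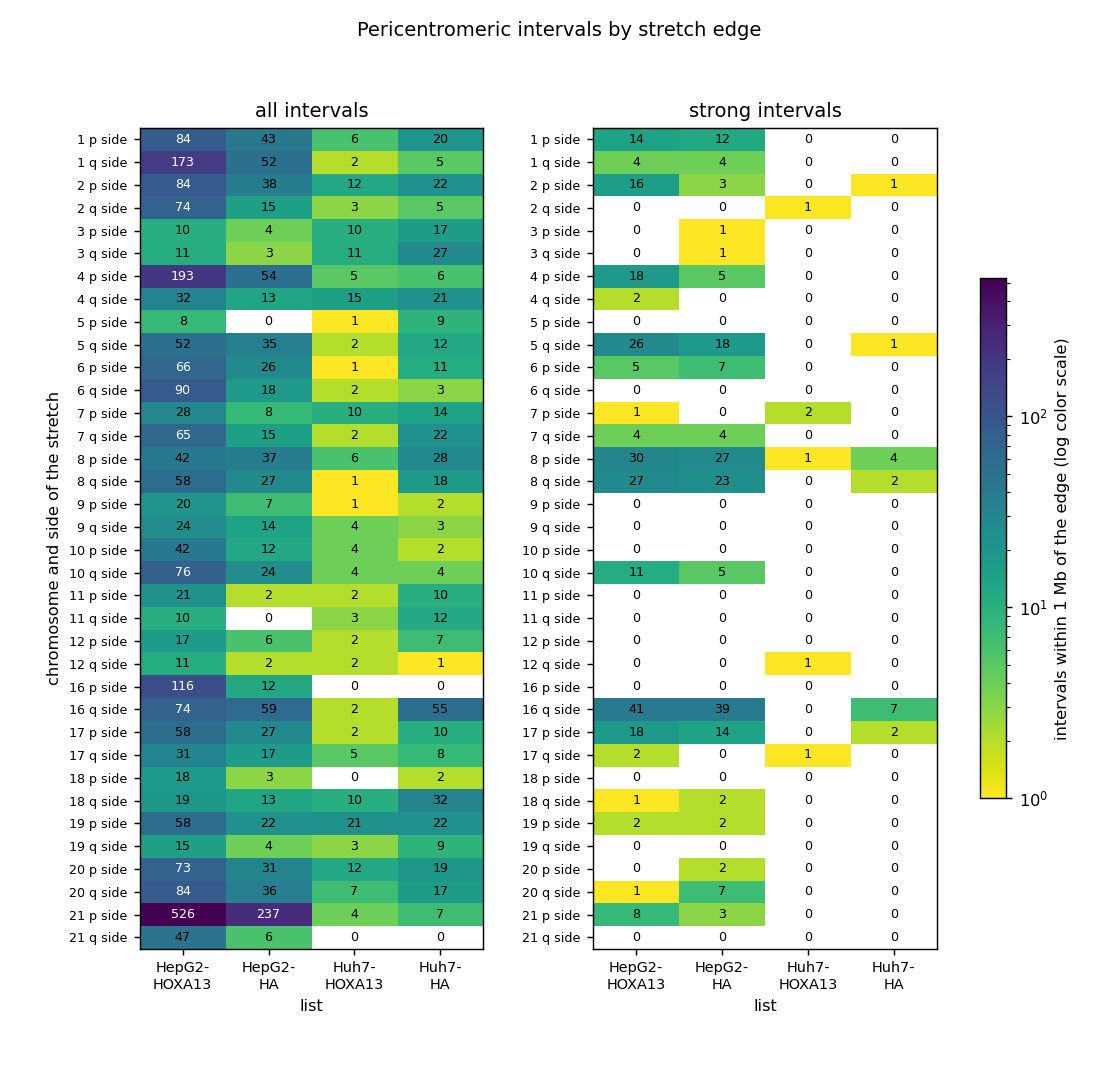
Number of pericentromeric intervals (left) and of strong ones (right) in the window at each of the 36 edges (rows: chromosome and side) for the 4 lists (columns), on a log color scale with the count printed in each cell. White cells hold 0. The p side of chromosome 21 is highest in HepG2, whereas strong intervals are most numerous on chromosomes 8 and 16, with 57 and 41 in HepG2-HOXA13 and 50 and 39 in HepG2-HA.

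Across the 36 windows, the number of members had a Spearman correlation of 0.83 between the HepG2 lists and 0.57 between the Huh7 lists. Between lists of different lines it ranged from −0.03 to 0.30. These are descriptions over 36 points that share the window sequence, and lists of a line also share the genome of that line. By side, the p side held 1464 of 2410 members in HepG2-HOXA13, 569 of 922 in HepG2-HA, 99 of 177 in Huh7-HOXA13 and 208 of 462 in Huh7-HA.

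Members overlapped between lists more often than other autosomal intervals did in most pairs of lists. Of HepG2-HA members, 453 of 922 overlapped an interval of HepG2-HOXA13 by at least 1 bp, or 49.1% (45.9 to 52.4), against 4.24% of all autosomal intervals. In the other direction, 458 of 2410 members (19.0%, 17.5 to 20.6) overlapped HepG2-HA, against 2.04%. Of the 462 Huh7-HA members, 139 (30.1%) overlapped HepG2-HA, against 8.71%, and 133 (28.8%) overlapped HepG2-HOXA13, against 1.39%. Seen from HepG2, 110 of 922 anti-HA members (11.9%) overlapped Huh7-HA, against 6.98%, and 103 of 2410 anti-HOXA13 members (4.27%) did, against 0.508%.

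Overlap with the Huh7-HOXA13 list was sparse. Of its 177 members, 25 (14.1%) overlapped HepG2-HOXA13, against 2.4% of that list's autosomal intervals, and 16 (9.04%) overlapped HepG2-HA, against 2.09%. Between the Huh7 lists, 4 of 177 anti-HOXA13 members (2.26%, 0.62 to 5.68) overlapped anti-HA, against 1.75%, and 4 of 462 anti-HA members (0.87%, 0.24 to 2.20) overlapped anti-HOXA13, against 0.631%. These shares were near their background. In HepG2, 25 of 2410 anti-HOXA13 members (1.04%) overlapped Huh7-HOXA13, against 0.352%, and 16 of 922 anti-HA members (1.74%) did, against 0.625%.

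Among the members, part of the overlap went with raised input. Of the members with raised input, 84.4% in HepG2-HA overlapped HepG2-HOXA13, against 3.60% of other autosomal intervals with raised input. For Huh7-HA, 78.8% of such members overlapped HepG2-HA, against 29.7%, and 77.5% overlapped HepG2-HOXA13, against 1.41%. Of the members without raised input, 31.5% in HepG2-HA overlapped HepG2-HOXA13, against 2.87% of other autosomal intervals without raised input. In Huh7-HA, 6.43% (3.97 to 9.76) overlapped HepG2-HA, against 6.59%, and 5.14% (2.97 to 8.22) overlapped HepG2-HOXA13, against 0.89%. Thus the share in HepG2-HA was no higher than outside the windows for Huh7-HA members with low input. Where intervals of both HepG2 lists overlapped, their summits lay a median of 34 bp apart over 453 pairs. Over the 252 pairs with raised input in both it was 18 bp, and over the other 201 pairs it was 77 bp.

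Merging all members by overlap gave 3309 regions. Of these, 2812 held intervals of 1 list, 402 of 2 lists, 94 of 3 lists and 1 of all 4 lists. The 2-list regions were mostly shared by the HepG2 lists, in 345 cases. Among the 94 regions of 3 lists, 81 lacked Huh7-HOXA13, 12 lacked Huh7-HA and 1 lacked HepG2-HOXA13. They clustered at the edges, with 79 within 50 kb, and 82 had raised input in every list that held them. The region of all 4 lists lay on the p side of chromosome 17, at 22245537 to 22245993. Its folds were 2.65 in HepG2-HOXA13, 1.97 in HepG2-HA, 1.30 in Huh7-HOXA13 and 1.64 in Huh7-HA, so all 4 lists had low folds there.

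Of the 17 strong members of Huh7-HA, 16 overlapped a strong interval of both HepG2 lists, and those 16 had raised input. Outside the windows, 72 of the 89 strong Huh7-HA intervals (80.9%) also overlapped HepG2-HA, 56 of them (62.9%) a strong interval, whereas 4 of the 89 (4.49%) overlapped HepG2-HOXA13. Strong Huh7-HA intervals were thus often shared with HepG2-HA in either set, and rarely with HepG2-HOXA13 outside the windows. The exception was chromosome 8, 42995898 to 42996345, 842417 bp from the edge, with a ChIP pileup of 26 on 4.66 expected and a fold of 4.77 (3.18 to 6.91), the highest among the members of that list. It overlapped no interval of another list. In HepG2-HA, 131 of the 453 pairs with HepG2-HOXA13 were strong in both lists, 130 of them with raised input in both.

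The 5 members of HepG2-HA with the highest fold all lay more than 50 kb from an edge, outside the edge blocks. The highest was chromosome 8, 42905910 to 42906304, with a pileup of 71 on 3.78 expected and a fold of 15.0 (11.8 to 18.9). It lay 932458 bp from the edge and overlapped an interval of Huh7-HA. The next was 42922431 to 42922788 on the same chromosome at 11.0-fold (8.22 to 14.4). An interval of chromosome 18 came after it, 18590209 to 18590734, with 9.20-fold (6.42 to 12.8). Chromosome 20, 25358939 to 25359412, reached 8.40-fold (6.84 to 10.2) and chromosome 20, 30292457 to 30292835, reached 6.88-fold (5.62 to 8.34), both on input of 4.12 and 5.28 times the background. None of these 5 overlapped an interval of HepG2-HOXA13. Of all autosomal intervals of HepG2-HA only 4.24% did, but of its members 49.1% did. The lack of overlap was thus near the share of the whole list and below that of the members, though with only 5 intervals.

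In HepG2-HOXA13 the highest folds were lower. Chromosome 10, 42356603 to 42357217, reached 7.52-fold (4.93 to 11.0) at 1611 bp from the edge. Chromosome 7, 57556118 to 57556403, reached 6.35-fold (4.40 to 8.88), and chromosome 18, 18516036 to 18516185, 6.12-fold (3.80 to 9.38) at 5070 bp from the edge. Chromosome 4, 49093961 to 49094197, had 5.92-fold (4.20 to 8.14) and chromosome 1, 143422384 to 143422576, had 5.83-fold (3.62 to 8.94). The intervals on chromosomes 7 and 4 overlapped HepG2-HA, and none of the 5 overlapped a Huh7 interval. Of all autosomal intervals of the list, 2.04% overlapped HepG2-HA, 0.352% Huh7-HOXA13 and 0.508% Huh7-HA. The lack of overlap with Huh7 was thus near the background. The counting intervals of the 5 overlap, so their order is not resolved.

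All 6 strong members of Huh7-HOXA13 lay over 400 kb from an edge on input below the raised level. The highest was chromosome 7, 57187644 to 57188394, with a fold of 8.17 (5.77 to 11.3). The next lay on chromosome 2, 95815146 to 95815541, and had a fold of 6.95 (4.86 to 9.66). Both overlapped an interval of HepG2-HOXA13. Chromosome 8, 42965393 to 42965824, had 6.37-fold (4.57 to 8.67) and chromosome 7, 57528787 to 57529581, had 5.53-fold (3.64 to 8.09), and neither overlapped another list. The remaining pair, chromosome 17, 26022394 to 26022547, and chromosome 12, 38710458 to 38710654, had folds of 4.50 and 4.20. The latter overlapped HepG2-HA. Of all autosomal intervals of Huh7-HOXA13, 2.4% overlapped HepG2-HOXA13, 2.09% HepG2-HA and 1.75% Huh7-HA. After the chromosome 8 interval described above, the highest folds of Huh7-HA were 4.40 on chromosome 21, 11142902 to 11143020, and 3.96 on chromosome 16, 46864523 to 46864875, neither of them strong.

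Across the 1 Mb limit of the windows, interval counts were somewhat higher outside and median folds moved in either direction. From 900 to 1000 kb the 4 lists had 118, 36, 16 and 31 intervals, and from 1000 to 1100 kb 122, 49, 19 and 34. The median folds were 2.93, 2.63, 2.45 and 2.52 inside and 2.89, 2.82, 2.81 and 2.46 outside. Strong intervals numbered 4, 7, 0 and 0 inside and 1, 7, 0 and 0 outside.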

How the data were processed

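ChIP and input libraries of HepG2 and Huh7 gave 4 interval lists, 1 per ChIP library. Per the submitters' processing notes, alignment was by BWA and peak calling by MACS2; no version or setting is given in the sources used. The notes name GRCh38, while the sequence names in the deposited lists are those of GRCh37 with decoy. No coordinate was converted, and no GRCh37 sequence or gene annotation was used, so neither sequences nor gene names are given.

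Each deposited row holds a fold ratio of ChIP over expected pileup, a −log10 p and a −log10 q at the summit. It also holds a score that follows the −log10 p, and the summit offset, as the authors' caller wrote them. The lowest −log10 p was 2.00, so the lists were limited at p of 0.01. Whole-number ChIP pileups and expected pileups were solved from the deposited fold and p with the formulas of MACS2, for at least 99.99% of intervals. In Huh7-HOXA13 the ChIP was scaled by 0.812. The same solution recovered 4996 of 4996 simulated pileups, and 4997 of 4997 with a scale of 0.81. Depth was estimated from the background and an effective genome of 2700000000 bp, while the labels state 50 M reads (M, 1e6) per sample.

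Stretches, windows, overlaps (at least 1 bp), exact binomial and Poisson 95% intervals were computed with Python 3.11.15, pandas 2.3.3 and scipy 1.17.1. Replicates were not available, so values of 1 library stand for each condition. Named regions were, per list, the 5 members with the highest fold, per edge the most significant strong interval of any list, and regions holding 3 or 4 lists, given in part. The members, the thresholds and this rule were chosen with earlier results of these data known. Alternatives were a 2 Mb window, stretches of at least 5 Mb, other thresholds for q, input and overlap, leaving out intervals with raised input or the fullest chromosome, and, added after seeing the data, leaving out members within 50 kb of an edge or the p side of chromosome 21 (for the density by distance).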

Additional observations from a re-analysis of the deposited data

Results flagged for a closer look

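Chromosome X lies outside the autosomal rule, yet strong intervals also lay beside the first of its 4 stretches of at least 2.9 Mb without intervals. In the 1 Mb up to 58581956, 10 of 24 intervals of HepG2-HOXA13 and 5 of 23 of HepG2-HA were strong. The latter share was near the 21.2% of all autosomal intervals of HepG2-HA. In the 1 Mb from 61682321, strong intervals were 41 of 62 in HepG2-HOXA13, 24 of 42 in HepG2-HA and 7 of 25 in Huh7-HA. The only interval of Huh7-HOXA13 there was not strong. The edges of the other 3 stretches had 0 or 1 strong interval each in every list. The highest folds on the side from 61682321 were 3.43, 2.86 and 1.94. The first 1 Mb with intervals on the 4 autosomes without a stretch (13, 14, 15 and 22) held 296 intervals of HepG2-HOXA13, 74 of HepG2-HA, 16 of Huh7-HOXA13 and 36 of Huh7-HA. These regions drew attention as signal in data that the comparisons above did not use. On these 4 autosomes 0, 3, 0 and 0 of the intervals were strong in the same order. Of all autosomal intervals 0.468%, 21.2%, 2.6% and 0.374% were strong. The counts of 0 were thus near the background, and that of HepG2-HA lay below it.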

How the results depend on the processing

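Each of the 24 shares was recomputed under its alternatives, which gave 128 values; 39 stayed within the 95% interval of the reported share and 89 moved beyond it. The windows and thresholds define what is counted, so most moves follow from their construction (other length, fewer intervals). No paired analysis was possible because each condition has 1 library. Every value that moved is given here, and shares of overlap are of the list named first. With windows of 2 Mb, the pericentromeric share of autosomal intervals was 5.28% in HepG2-HOXA13, 4.17% in HepG2-HA, 3.39% in Huh7-HOXA13 and 2.95% in Huh7-HA. The pericentromeric share of strong intervals was 75.7% in HepG2-HOXA13, 3.52% in HepG2-HA and 6.39% in Huh7-HOXA13. The share of members with raised input was 13.3% in HepG2-HOXA13, 28.0% in HepG2-HA and 23.6% in Huh7-HA. With stretches of at least 5 Mb, found on chromosomes 1, 9 and 16, the pericentromeric share of autosomal intervals was 0.688% in HepG2-HOXA13, 0.549% in HepG2-HA, 0.146% in Huh7-HOXA13 and 0.300% in Huh7-HA. The pericentromeric share of strong intervals was 17.7% in HepG2-HOXA13, 0.762% in HepG2-HA, 0% in Huh7-HOXA13 and 6.60% in Huh7-HA. With q of 0.05 or less, the pericentromeric share of autosomal intervals was 10.8% in HepG2-HOXA13, 2.19% in Huh7-HOXA13 and 4.59% in Huh7-HA. Without intervals with raised input, the pericentromeric share of autosomal intervals was 2.79% in HepG2-HOXA13, 2.17% in HepG2-HA and 1.19% in Huh7-HA. The pericentromeric share of strong intervals was 30.6% in HepG2-HOXA13, 0.463% in HepG2-HA and 1.96% in Huh7-HA. Without the fullest chromosome of each list (21, 21, 19 and 16), the pericentromeric share of autosomal intervals was 2.62% in HepG2-HOXA13, 2.02% in HepG2-HA and 1.47% in Huh7-HA. The share of members with raised input was 21.9% in HepG2-HOXA13, 43.0% in HepG2-HA and 24.6% in Huh7-HA. HepG2-HOXA13 overlapped Huh7-HA in 5.50%. HepG2-HA overlapped Huh7-HA in 16.1%. Huh7-HA overlapped HepG2-HOXA13 in 20.1% and HepG2-HA in 21.4%. Without members within 50 kb of an edge, a choice made after seeing the data, the pericentromeric share of autosomal intervals was 2.71% in HepG2-HOXA13, 1.94% in HepG2-HA and 1.13% in Huh7-HA. The pericentromeric share of strong intervals was 34.0% in HepG2-HOXA13, 0.649% in HepG2-HA and 1.11% in Huh7-HA. The share of members with raised input was 9.41% in HepG2-HOXA13, 16% in HepG2-HA, 13.0% in Huh7-HOXA13 and 10.4% in Huh7-HA. HepG2-HOXA13 overlapped HepG2-HA in 12.7%, Huh7-HOXA13 in 0.624% and Huh7-HA in 1.20%. HepG2-HA overlapped HepG2-HOXA13 in 36.4% and Huh7-HA in 4.57%. Huh7-HOXA13 overlapped HepG2-HOXA13 in 7.79% and HepG2-HA in 5.19%. Huh7-HA overlapped HepG2-HOXA13 in 7.23% and HepG2-HA in 9.43%. With strong set at −log10 q of 10 or more, the pericentromeric share of strong intervals was 84.0% in HepG2-HOXA13, 2.03% in HepG2-HA and 37.5% in Huh7-HA. With raised input set at 2 times the background, the share of members with raised input was 27.1% in HepG2-HOXA13, 45.4% in HepG2-HA, 32.8% in Huh7-HOXA13 and 40.9% in Huh7-HA. With raised input set at 5 times the background, the share of members with raised input was 12.1% in HepG2-HOXA13, 25.7% in HepG2-HA, 10.2% in Huh7-HOXA13 and 28.1% in Huh7-HA. With an overlap of at least 50% of the shorter interval, HepG2-HOXA13 overlapped HepG2-HA in 16.9%. HepG2-HA overlapped HepG2-HOXA13 in 44.6%. With q of 0.05 or less in both lists, HepG2-HOXA13 overlapped HepG2-HA in 34.8%, Huh7-HOXA13 in 0.657% and Huh7-HA in 7.10%. HepG2-HA overlapped HepG2-HOXA13 in 54.7% and Huh7-HOXA13 in 0.412%. Huh7-HOXA13 overlapped HepG2-HOXA13 in 23.8% and Huh7-HA in 0%. Huh7-HA overlapped HepG2-HOXA13 in 76.7%, HepG2-HA in 79.1% and Huh7-HOXA13 in 0%. Without counted intervals with raised input, HepG2-HOXA13 overlapped HepG2-HA in 9.37%, Huh7-HOXA13 in 0.306% and Huh7-HA in 0.815%. HepG2-HA overlapped HepG2-HOXA13 in 31.5%, Huh7-HOXA13 in 0.488% and Huh7-HA in 2.76%. Huh7-HOXA13 overlapped HepG2-HOXA13 in 7.86% and HepG2-HA in 5.00%. Huh7-HA overlapped HepG2-HOXA13 in 5.14% and HepG2-HA in 6.43%. The Huh7-HOXA13 values rest on the fewest intervals, 177 members of which 6 were strong. Peak calls limited at p of 0.01 leave regions of lower signal out of every list.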
